A study of Mus musculus with 9 samples.

Results

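Among the single-cell libraries made from trigeminal ganglia there were 186 that carried the transcripts of olfactory sensory neurons. They were chosen from the table of unique transcripts (UMIs) per gene and barcode by 5 genes, Stoml3, S100a5, Omp, Kirrel2 and Sult1d1. A barcode with 200 to 8500 detected genes was taken as a member when at least 2 of the 5 genes had a UMI, when 1 of them had 2 UMIs or more, when Calca and Nefm had at most 2 UMIs each and when Gh made up under 10% of its UMIs. The 186 members were 2.88% (exact binomial 95% interval 2.48 to 3.31) of the 6464 barcodes within the limits on genes, and the other 6278 are called the rest. The whole table held 6997 barcodes and 21536 genes.

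Olfactory sensory neurons line the nasal cavity and send their axons to the olfactory bulb. Each mature neuron is thought to express a single odorant receptor gene out of a very large family. Odorant binding activates the G protein Golf, which contains the alpha subunit Gnal, and through it the adenylyl cyclase Adcy3. Cyclic AMP then opens the channel made of Cnga2, Cnga4 and Cngb1, and the calcium that enters opens the chloride channel Ano2. Omp, olfactory marker protein, is the classical marker of the mature cells, Stoml3 is a stomatin-like membrane protein of their cilia, S100a5 is a calcium-binding protein known to depend on odour-evoked activity, Kirrel2 is an adhesion molecule that sorts their axons, and Sult1d1 is a sulfotransferase. Transcription factors of the Ebf family, which bind a palindrome with the core CCCNNGGG (N is any base), are known regulators of many of these genes.

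The core of the Ebf palindrome lay near an annotated start of several genes that set the members apart. Windows of 30 bases from the promoters of RefSeq (GRCm38.p6; each promoter runs from 250 bases before to 50 bases after the start that table gives) are shown 5′ to 3′ on the gene's own strand, with the matched 8 letters in capitals, to let the olfactory genes be compared by eye. The genes were the sulfotransferase of the selection rule, 5 genes of the transduction chain and the receptor-export gene Rtp2. For Ano2 the start used lay inside the gene, whose span on chromosome 6 begins at 125690419. The same holds for Cnga4, counted below, whose span on chromosome 7 begins at 105400024.
Sult1d1, chr5:87568993-87569022, minus strand: tataattatcaCCCTGGGGagtttatactc
Gng13, chr17:25717066-25717095, plus strand: tgcatgtcccaCCCCAGGGgagacctgcca
Cnga2, chrX:71991772-71991801, plus strand: caagggagagtCCCTTGGGgagcttgggag
Cngb1, chr8:95306696-95306725, minus strand: acactgctggaCCCGTGGGggttgctgctt
Ano2, chr6:125711110-125711139, plus strand: caagggaacacCCCGAGGGatggaggcagg
Slc24a4, chr12:102128607-102128636, plus strand: ctgggcgagcgCCCTAGGGgaggtgtacac
Rtp2, chr16:23930978-23931007, minus strand: acctccgtcagCCCATGGGttggatctcac
Because the core is its own reverse complement, a match on one strand is also a match on the other. It was found in 7 of the 11 transduction genes with a promoter in the table, in 6 of 12 genes of receptor export and choice, in 2 of 27 genes of cilia, and in 2 of 4 genes of the selection rule. Over all 27025 promoters 15.4% held it, and over the 10919 promoters of genes measured here with enough UMIs 21.5% held it. The full palindrome, with a T before the core and an A after it, was found in 0 of the 11 transduction genes, 1 of 12 of export and choice and 0 of 4 of the rule, and in 1.06% of all promoters. A match describes the letters in this window and is no evidence that a factor binds there.

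The libraries came from wild type FVB/N mice aged 3 to 6 weeks by the labels, whose trigeminal ganglia were pooled from many animals of both sexes, dissociated, passed through a Percoll gradient and depleted of glia before Dropseq. Nothing in the groups differed by treatment, genotype or time, and the 9 runs are 9 samples of 1 group. The barcodes do not name their run, so the table is 1 pooled sample. Without replicates the differences below carry no p-value, and their intervals cover counting error only.

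The members were shallow libraries. They held between 1000 and 5014 UMIs, with a median of 1351.5, while the rest had a median of 2266. The median number of genes was 860 in members and 1291.5 in the rest. Mitochondrial genes took a median of 1.90% of UMIs in members and 1.23% in the rest. In the table, 6 barcode sequences occurred in 2 columns each, and no member was among these 12 columns. A final N in the barcode was seen in 528 columns, 15 of them members, and no pair of members differed by only 1 base. No doublet caller was run.

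Transcripts of other cells were present in some members, and these were counted one by one. Haemoglobin made up 10% or more of the UMIs in 21 members. Myelin genes together reached 10 UMIs or more in 3 members. Genes of sustentacular cells, the supporting cells of the olfactory epithelium, reached 10 UMIs in 5 members, with 53 to 208 UMIs each, and those 5 held 98.7% of such UMIs. Genes of trigeminal sensory neurons reached this level in 3 members and pituitary hormones in 6. In all, 37 members showed at least 1 of these signs and 149 showed none. Some of the results that these transcripts could touch are given with and without the 37, a choice made after the values were seen.

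The 5 genes of the rule are described first, without a test, because they chose the members. All 5 were found in 57 members, 4 in 74, 3 in 44 and only 2 in 11. Omp had a UMI in 184 of the 186 members, with a median of 11 UMIs and a highest value of 36. Stoml3 was found in 182 members, with a median of 13 and a highest value of 45. Both were therefore present in nearly every barcode. Sult1d1 was found in 150 members at a median of 2 UMIs, and Kirrel2 in 88 members at no more than 6 UMIs. S100a5 was the uneven one, at 0 in 55 members, at 10 UMIs or more in 74 and at 154 UMIs in the highest.

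**Figure D1:**
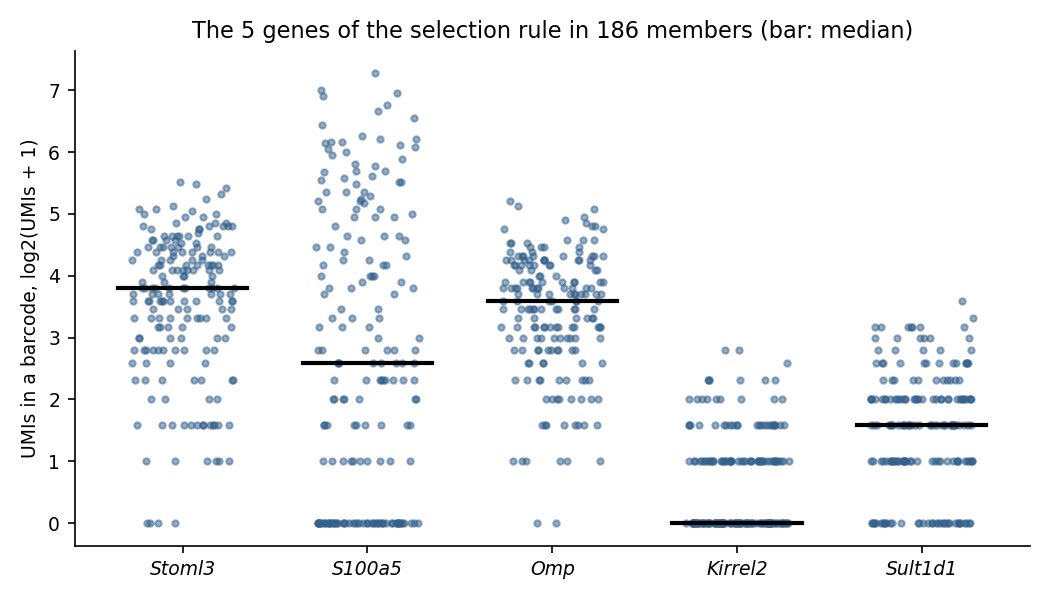
UMIs of the 5 genes of the selection rule in each of the 186 members (1 point per barcode; vertical axis log2(UMIs + 1); horizontal bar, median). Omp and Stoml3 form one broad group each, while S100a5 spreads from 55 members at 0 to a highest value of 154 UMIs.

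As UMIs per 1000000 UMIs (CPM) of a group of barcodes, Omp reached 7659 CPM (exact Poisson 95% interval 7341 to 7988) in members and 13.7 CPM in the rest. Stoml3 stood at 9189 CPM against 8.58 CPM, and S100a5 at 12319 CPM against 11.0 CPM. Kirrel2 had 567 CPM against 0.704 CPM and Sult1d1 1643 CPM against 2.64 CPM. When each gene in turn was left out of the rule, the other 4 genes chose 177 barcodes for Omp, and Omp was found in 98.9% of them (interval 96.0 to 99.9). For Stoml3 the share was 97.8% of 178 barcodes, for Sult1d1 80.2% of 182, for S100a5 69.9% of 183 and for Kirrel2 47.3% of 186. These shares do not rest on the gene they describe.

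At the edge of the rule, the summed UMIs of the 5 genes in a member ran from 3 to 195, with a median of 43.5, and 7 members had under 5. Of those 7, 4 had a UMI of Gng13, 4 of Gnal and 0 of Cnga2 or Adcy3. Just outside were 70 barcodes with 2 or more of the genes. Of these, 61 were over a limit on Calca, Nefm or Gh, and the other 9 were within the limits but had no gene at 2 UMIs, with at most 3 summed UMIs. Among the 61, 14 barcodes had 10 or more summed UMIs of the 5 genes and the highest had 103, so the rest holds some barcodes rich in the same transcripts.

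The label was then checked against genes that took no part in the rule. A gene was counted as higher or lower in members when its CPM differed by 4-fold or more from the rest, among genes with at least 20 UMIs over both. By this measure 7.51% of the 15091 genes tested were higher in members (1133 genes) and 28.5% were lower (4302 genes). The median log2 ratio over all genes tested was -0.43. Of the 14 genes of olfactory transduction, 11 were higher, 0 were lower and 3 lay between, with a median log2 ratio of 4.71. Against the 3650 barcodes of trigeminal sensory neurons alone 12 of the 14 were higher, where 8.92% of 13839 genes were.

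The G protein of the pathway was seen in almost all members. Gnal was found in 172 members with a median of 5 UMIs and a highest value of 22, and stood at 3204 CPM in members and 297 CPM in the rest, a ratio of 10.8 (interval 10.1 to 11.5). Gng13, its gamma subunit, was found in 174 members with a median of 3 UMIs and a highest value of 21. Its level was 2760 CPM against 12.7 CPM, a ratio of 218 (192 to 248). Gnb1, a beta subunit used by many cells, was at 1424 CPM against 395 CPM and stayed under 4-fold at 3.60. Ric8b, which helps to fold and activate Golf, was at 811 CPM against 40.4 CPM. Gnal was also common in trigeminal sensory neurons, at 361 CPM.

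The cyclase and the channels followed. Adcy3 was found in 106 members at up to 7 UMIs and stood at 652 CPM against 11.6 CPM, a ratio of 56.2 (46.7 to 67.5). Cnga2 was found in 103 members at up to 6 UMIs, with 610 CPM against 1.06 CPM and a ratio of 578 (390 to 882). Cnga4 reached 395 CPM in 77 members against 0.352 CPM in the rest. Cngb1, whose longer form also serves rod photoreceptors, had 194 CPM against 2.50 CPM, and Ano2 had 173 CPM against 0.704 CPM. The 3 subunits of the cyclic nucleotide-gated channel were thus all present in members and almost absent elsewhere. With every barcode thinned to 1000 UMIs, the share with Cnga2 was 44.1% in members, 0.129% in sensory neuron barcodes and 0 in glia.

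Genes that load and end the response were also found. Slc12a2, the cotransporter that fills the cell with chloride, was at 342 CPM against 86.6 CPM, just under 4-fold at 3.95 (3.19 to 4.84). Slc24a4, an exchanger that removes calcium, had only 17 UMIs in members, at 59.9 CPM against 2.60 CPM. The phosphodiesterases Pde1c and Pde4a, which break down cyclic AMP, were at 560 CPM and 264 CPM, with ratios of 5.93 and 29.9. Adrbk2, a receptor kinase, had 2 UMIs in all members together, too few to place it.

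**Figure D2:**
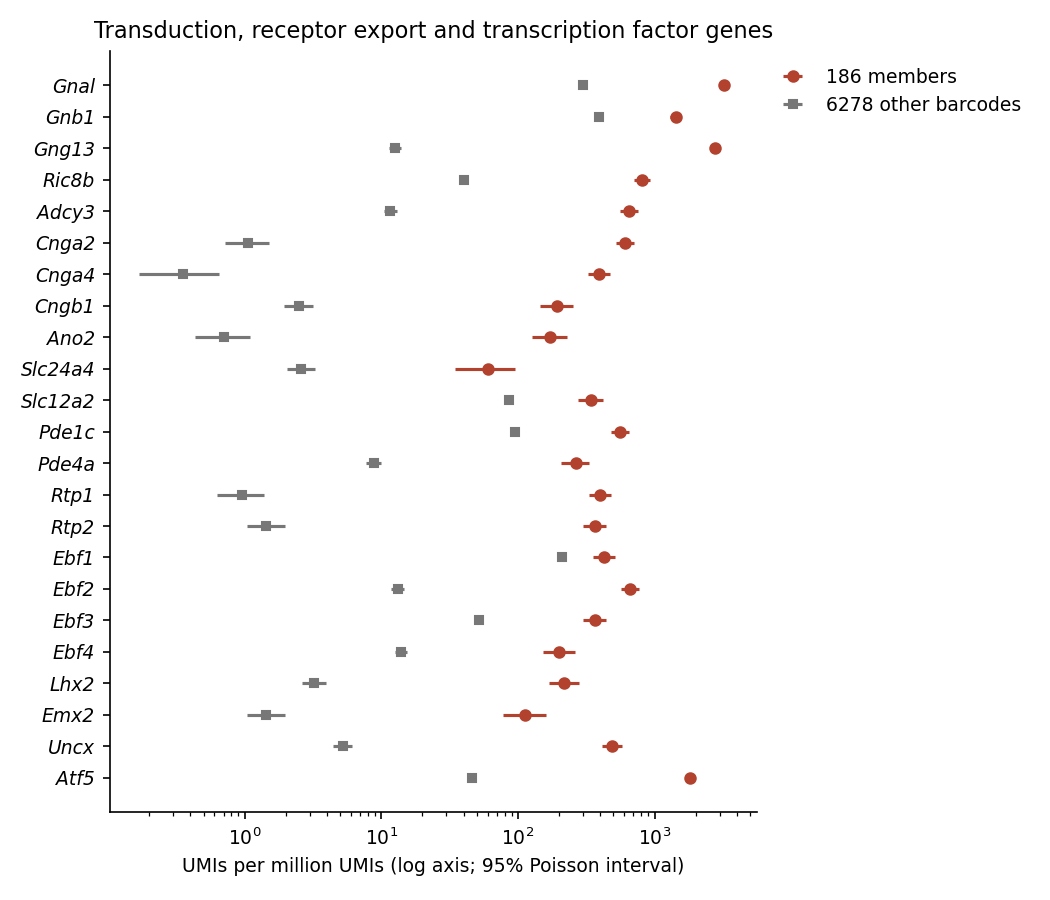
Level of genes of olfactory transduction (upper rows) and of receptor export and choice (lower rows) in the 186 members (red circles) and in the 6278 other barcodes (grey squares), in CPM on a log axis with exact Poisson 95% intervals. Among the genes drawn, the points lie close together, under 4-fold, for Ebf1, Gnb1 and Slc12a2 and farthest apart for Cnga4 and Cnga2. Reep1, Ldb1 and Kdm1a, which also differ by under 4-fold, are not drawn.

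Genes for receptor export and for the choice of a receptor were high as well. Of 13 tested, 9 were higher in members and 0 lower, against 7.51% and 28.5% of all genes, with a median log2 ratio of 5.32. Rtp1 and Rtp2, chaperones that carry odorant receptors to the cell surface, stood at 402 CPM against 0.95 CPM and 367 CPM against 1.44 CPM. Reep1, described as a further helper of export, was at 109 CPM in members and 240 CPM in the rest. Atf5, the transcription factor of the stress response that follows receptor choice, was found in 162 members at 1826 CPM, against 45.8 CPM. Lhx2 and Emx2, homeodomain factors of olfactory neurons, were at 219 CPM and 113 CPM, with ratios of 67.5 (48.1 to 94.2) and 78.2 (47.7 to 127). Uncx, another homeodomain factor, was at 490 CPM against 5.24 CPM.

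The Ebf genes differed among themselves. Ebf2 was found in 104 members at 663 CPM, with a ratio of 50.4 (42.0 to 60.2). Ebf4 stood at 201 CPM with a ratio of 14.5, and Ebf3 at 367 CPM with a ratio of 7.08. Ebf1 was at 430 CPM in members and 209 CPM in the rest, a ratio of 2.05 (1.70 to 2.46), since many other barcodes also carried it. The demethylase Kdm1a and the adaptor Ldb1 were under 4-fold, at 1.13 and 2.30.

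Odorant receptors themselves were the transcripts that told single members apart. The table holds 260 genes named Olfr, where RefSeq lists 1428, and 140 of the 260 were seen in members. Members held 1152 of the 1606 receptor UMIs in the 6464 barcodes within the limits on genes, 71.7%. Their summed level was 4061 CPM, against 16.0 CPM in the rest and 7.83 CPM in sensory neuron barcodes. At least 1 receptor UMI was found in 151 of the 186 members, 81.2% (74.8 to 86.5). The share was 3.20% in the rest, 3.53% in sensory neurons (median 3232.5 UMIs per barcode), 1.87% in red cells and 0 of 228 in glia (median 1715.5 UMIs), where 0 allows up to 1.60%.

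Nearly every member with a receptor had one gene. Exactly 1 Olfr gene was seen in 140 of the 151 members, 92.7% (87.3 to 96.3), 2 genes in 9 members and 3 genes in 2. Counting only genes with 2 UMIs or more, 114 members had a receptor and 110 of them, 96.5%, had 1. The leading gene of each member together took 98.2% of all receptor UMIs in members. With a median of 4 receptor UMIs per positive member, and 35 members with a single UMI, a second gene at a low level would often have been missed. In the 38 members with 10 receptor UMIs or more, a second gene reached at most 5 UMIs.

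**Figure D3:**
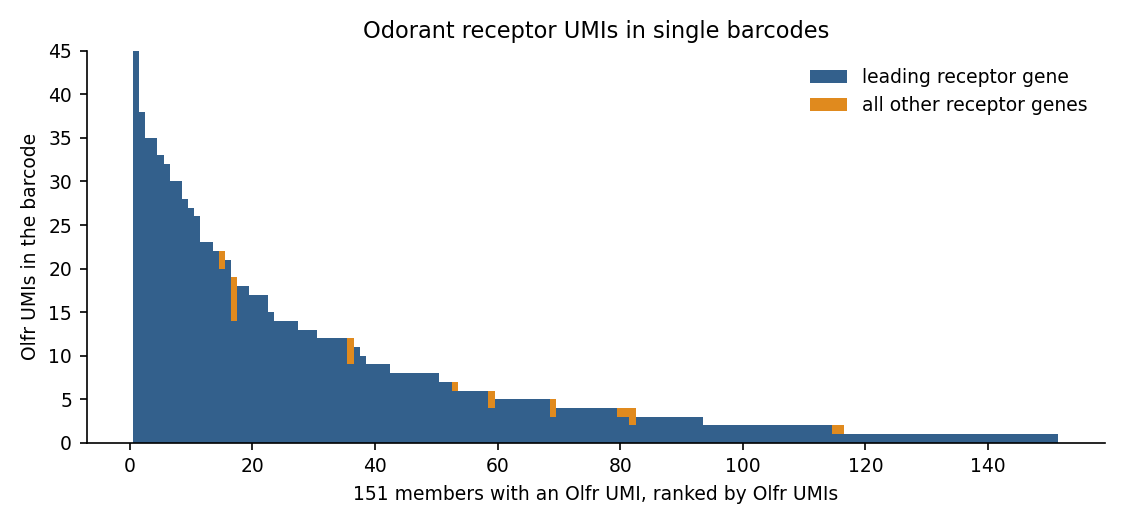
Odorant receptor (Olfr) UMIs in each of the 151 members that had any, ranked from the highest; the blue part of a bar is the leading receptor gene of that barcode and the orange part all its other receptor genes. Bars run from 45 UMIs to 1 UMI, and an orange part is present in 11 of them.

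Different members carried different receptors. Of the 140 genes seen, 119 were found in 1 member only, 130 led at least 1 member, and no gene led more than 3. Olfr1301, on chromosome 2, had the most UMIs, 83 in 3 members with up to 38 in one. Olfr695, on chromosome 7, had 59 UMIs in 2 members. Olfr798, on chromosome 10, had 45 UMIs in 1 member, and Olfr1112 and Olfr180 each had 35 UMIs in 1 member. The leading genes lay on 16 chromosomes, with 39 members each led by genes of chromosomes 2 and 7.

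The 11 members with more than 1 receptor gene were looked at in pairs of leading and second gene. In 7 the pair lay on 1 chromosome, and in 5 the genes were within 100 kb of each other, with gaps between 9.49 and 54.6 kb. The member with the most such UMIs had 20 of Olfr747 and 2 of Olfr749, which are 54.6 kb apart on chromosome 14. The largest second count was 5 UMIs of Olfr972 beside 14 of Olfr943, 688 kb apart on chromosome 9. Neighbouring receptor genes can be similar in sequence and reads can be assigned to the wrong copy, so these counts are uncertain, and the part of such reads was not tested.

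A few members carried receptors of other families. Taar2, a trace amine receptor, had 14 UMIs in 1 member and 0 in the rest, and that member had 14 UMIs of Omp and no Olfr UMI. Vmn2r69, of a vomeronasal family, had 3 UMIs in 1 member that also lacked Olfr UMIs, and Vmn2r29 had 1 UMI in 1 member without them. By contrast, Taar7b had 2 UMIs in 1 member with 14 Olfr UMIs, and Taar6 had 2 UMIs in 1 member with 1 Olfr UMI. In all, the 5 Taar genes of the table had 18 UMIs, the 22 Vmn2r genes 4, and the 12 Vmn1r and 8 Ms4a genes 0. The vomeronasal channel gene Trpc2 was at 24.7 CPM in members and 13.5 CPM in the rest. The necklace-cell genes Gucy2d and Cnga3 were at 0 UMIs in members, which does not exclude a low level at this depth. Of the 12 necklace-cell genes listed, 11 had no UMI in members. The remaining 1 was found in 44 members, and the list stood at 247 CPM against 334 CPM in the rest. Of 3 tested, 0 were higher and 2 lower than in the rest, and 1 was higher and 2 lower than in sensory neurons.

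Zone genes split the members in a second way. Nqo1, a quinone reductase, and Acsm4, an acyl-CoA synthetase, are known markers of the dorsal zone of the olfactory epithelium, and Ncam2 and Nrp2 of the ventral zone. Nqo1 was found in 36 members and stood at 335 CPM against 13.3 CPM in the rest. Acsm4 was found in 40 members, at 282 CPM against 0.774 CPM. Ncam2 was found in 41 members, at 229 CPM against 33.7 CPM, and Nrp2 in 21, at 84.6 CPM against 26.2 CPM.

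The genes of one zone tended to be found in the same barcodes, clearly for the dorsal pair. Acsm4 was found in 26 of the 36 members with Nqo1, 72.2% (54.8 to 85.8), and in 14 of the 150 without it, 9.33% (5.20 to 15.2). Nrp2 was found in 10 of 41 members with Ncam2, 24.4% (12.4 to 40.3), and in 11 of 145 without it, 7.59% (3.85 to 13.2), intervals that overlap. Between zones the pooled counts went the other way, since a ventral gene was found in 6 of the 50 members with a dorsal gene, 12.0% (4.53 to 24.3), and in 46 of the 136 without, 33.8% (25.9 to 42.4). This came mainly from Ncam2, found in 2 of the 40 members with Acsm4 (0.611% to 16.9%) and in 39 of the 146 without, 26.7% (19.7 to 34.7). Nrp2 was found in 4 of 40 (2.79% to 23.7%) and 17 of 146, 11.6% (6.93 to 18.0), intervals that overlap widely. Median depth differed little, at 1378 UMIs and 1347.5 UMIs. In 90 of the 186 members none of the 4 genes was seen.

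The zone genes were also set against the receptors. Class I receptors, the family first known from fish, are encoded in one cluster on chromosome 7 around the beta-globin genes, and genes within 2 Mb of Hbb-bs were taken as class I. They led 15 members, with 13 different genes, and class II receptors led 134. A dorsal gene was found in 13 of the 15 class I members, 86.7% (59.5 to 98.3), and in 30 of the 134 class II members, 22.4% (15.6 to 30.4). These intervals do not overlap. A ventral gene was found in 2 of the 15, 13.3% (1.66 to 40.5), and in 40 of the 134, 29.9% (22.3 to 38.4), intervals that overlap. With at least 2 UMIs of the leading receptor the counts with a dorsal gene were 10 of 10 and 24 of 104, and without members that showed signs of another cell type they were 10 of 12 and 22 of 109.

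**Figure D4:**
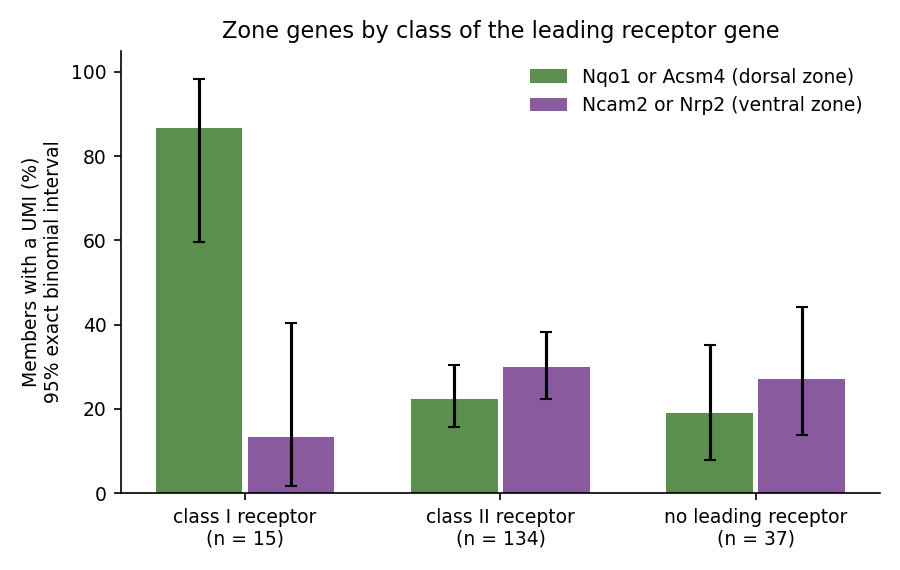
Share of members with a UMI of a dorsal-zone gene (Nqo1 or Acsm4, green) or a ventral-zone gene (Ncam2 or Nrp2, purple), by the class of the leading odorant receptor gene; bars start at 0 and error bars are exact binomial 95% intervals. The dorsal share is 86.7% for class I and 22.4% for class II, and the class without a leading receptor holds the 35 members with no receptor UMI and 2 with tied genes.

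Single class I members show what these shares are made of. The member with 27 UMIs of Olfr640 had 2 UMIs of Nqo1 and 3 of Acsm4, with none of Ncam2 or Nrp2. The member with 4 UMIs of Olfr653 had 11 UMIs of Nqo1 and 3 of Acsm4. The only class I member with ventral genes alone had 1 UMI of Olfr571, with 2 UMIs of Ncam2 and 2 of Nrp2. As levels, Nqo1 stood at 1390 CPM (963 to 1943) in class I members and 248 CPM (184 to 328) in class II members, and Acsm4 at 1104 CPM and 203 CPM. Omp was at 6869 CPM and 8437 CPM.

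The members also differed among themselves in genes that moved with S100a5. They were grouped, after the values were seen, into 55 members with no S100a5 UMI, 57 with 1 to 9 and 74 with 10 or more. The groups are ranges of one gene and not cell types, with 10 members at 8 to 12 UMIs near the upper boundary. Their depth was alike, with medians of 1371, 1356 and 1335 UMIs. S100a5 was part of the rule, so members without it had to show another 2 of the 5 genes.

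Among 39 genes compared over these groups, Pcp4l1 and Dlg2 had the largest ratios. The 39 were a chosen set, and Dlg2, Lrrc3b, Scn4b, Calb2 and Tubb2b were named after their values were seen. How many of all genes differ as much between the groups was not tested, so the ranking holds only within the 39. Pcp4l1, a small relative of the calmodulin-binding protein Pcp4, stood at 150 CPM in the members without S100a5, 1021 CPM in the middle group and 6037 CPM in the group with 10 UMIs or more. The ratio of the outer groups was 40.3 (23.4 to 76.1). Dlg2, a synaptic scaffold protein, stood at 23.1, 110 and 1417 CPM, a ratio of 61.5 (16.7 to 512) that rests on 2 UMIs in the lowest group. In the rest, Pcp4l1 was at 225 CPM and Dlg2 at 10.4 CPM.

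Further genes differed less between the groups. Kirrel2 stood at 242, 538 and 860 CPM, a ratio of 3.55 (2.19 to 6.01). It too was a gene of the rule, so its ratio is not independent of how the members were chosen. The ephrin receptor Epha5 had a ratio of 5.60 (2.36 to 16.1) and Lrrc3b 7.51 (3.24 to 21.4). Scn4b, a sodium channel subunit, had a ratio of 4.71, Pde1c 4.14 and the release protein Snap25 2.79. Adcy3 and Gnal moved less, with ratios of 1.86 and 1.59. Omp and Stoml3 were not level either, with ratios of 1.82 (1.63 to 2.03) and 1.82 (1.65 to 2.02). Rtp1 and Sult1d1 went the other way, at 0.475 (0.290 to 0.766) and 0.673 (0.541 to 0.836). Omp, Stoml3 and Sult1d1 were genes of the rule, like Kirrel2. Cnga2 had a ratio of 1.17 (0.801 to 1.72), an interval that includes 1. The adhesion genes Cntn4 and Ncam2 had ratios of 0.775 (0.549 to 1.09) and 0.748 (0.394 to 1.41), and Kirrel3 had 0.546 (0.0456 to 4.77), intervals that also include 1. Gng13 stood at 2247, 3063 and 2919 CPM.

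Other genes were higher in the members without S100a5. Gap43, a growth cone protein that marks immature olfactory neurons, stood at 1833, 779 and 321 CPM, so that the members without S100a5 had 5.71 times (3.92 to 8.53) the level of those with 10 UMIs or more. Calb2, which encodes calretinin, stood at 1095, 285 and 85.0 CPM, a ratio of 12.9 (6.51 to 29.0). Dpysl3, Tubb2b and Stmn2, which act on the cytoskeleton of growing axons, had ratios of 7.44, 6.56 and 3.57. Of the list of immature neuron genes, Tubb3 had a ratio of only 1.60 (1.01 to 2.56) and Gng8 3.25 (0.781 to 19.0), an interval that includes 1. Of the immediate early genes, Jun was 4.09 times (2.72 to 6.33) and Fos 1.74 times (1.22 to 2.50) as high without S100a5, while the intervals of Egr1, Junb and Fosb included 1. Without the 37 members that carried transcripts of another cell type, the ratio of Fos was 1.56 (0.995 to 2.46), an interval that includes 1.

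The same directions were seen without the 37 members that carried transcripts of another cell type. There the Pcp4l1 ratio was 40.4 (21.1 to 88.8) and the Dlg2 ratio 79.9. Without S100a5, Gap43 was 7.60 times and Calb2 14.7 times as high as in the upper group. Kirrel2 moved down to a ratio of 2.43 (1.47 to 4.20). Over all 186 members, a receptor UMI was found in 72.7% (59.0 to 83.9) of the group without S100a5, 87.7% (76.3 to 94.9) of the middle group and 82.4% (71.8 to 90.3) of the upper group, and these intervals overlap.

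**Figure D5:**
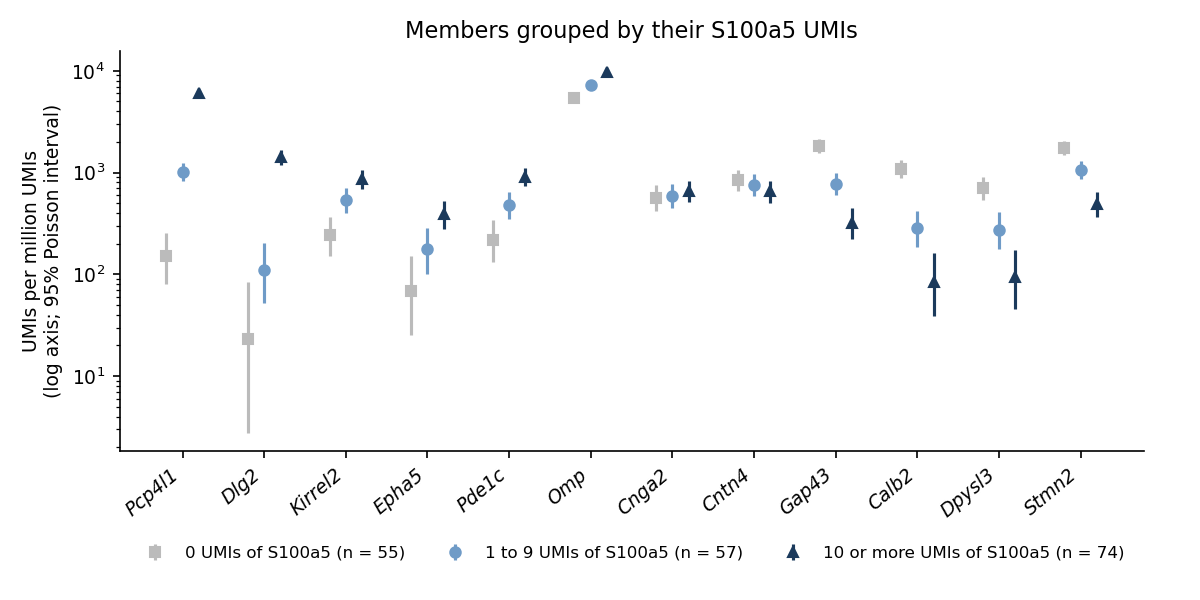
Level of 12 genes in members grouped by their S100a5 UMIs (grey squares, 0; light blue circles, 1 to 9; dark blue triangles, 10 or more), in CPM on a log axis with exact Poisson 95% intervals. Pcp4l1 climbs from 150 to 6037 CPM and Gap43 falls from 1833 to 321 CPM, while Cnga2 stays between 565 and 661 CPM.

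The list of immature neuron genes did not stand out in the members as a whole. Of 13 tested, 1 was higher (Gng8, at 59.9 CPM against 13.2 CPM), 2 were lower and 10 lay between, with a median log2 ratio of -0.97. The share that was higher is near the 7.51% of all genes, and 28.5% of all genes were lower. Gap43 was found in 59 members and stood at 931 CPM against 912 CPM, since trigeminal neurons carry it too. Calb2, which was not on the list, was at 458 CPM in members and 3.62 CPM in the rest. Of 9 progenitor genes 0 were higher and 2 lower, shares near those of all genes (7.51% and 28.5%), and Neurod1, a factor of early neuronal precursors, had 3 UMIs in all members together. The cycle gene Mki67 had 7 UMIs, and Neurog1 had none.

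Genes for wiring the axon were higher in part. Of 18 tested, 9 were higher and 3 lower, against 7.51% and 28.5% of all genes, with a median log2 ratio of 1.85. Cntn4, a contactin that sorts olfactory axons, was found in 108 members at 744 CPM, with a ratio of 32.4 (27.6 to 37.9). Tenm2, a teneurin, was at 293 CPM with a ratio of 22.0, and Ncam1 at 451 CPM with a ratio of 7.93. Nrp1 and Robo2, guidance receptors also used by sensory axons, were at 240 CPM and 243 CPM and under 2-fold. Kirrel3, often described as the counterpart of Kirrel2, had 8 UMIs in 8 members, a ratio of 1.21 (0.522 to 2.41).

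Olfactory neurons carry their transduction proteins in cilia, and the cilia genes gave a weaker pattern. Of 30 tested, 11 were higher and 1 was lower, against 7.51% and 28.5% of all genes, with a median log2 ratio of 1.48, and for 3 the lower bound of the ratio was also over 4. Those 3 were Ift43, Ift74 and Ift81 of the intraflagellar transport complex, with ratios of 10.2 (7.90 to 12.9), 5.92 (4.91 to 7.08) and 9.51 (7.44 to 12.0). Over all genes, 3.66% had a lower bound of 4 or more. Foxj1 and Dynlrb2, known from motile cilia, were at 88.1 CPM in 24 members and 176 CPM in 42 members, with ratios of 35.3 (21.4 to 56.4) and 42.1 (29.6 to 59.0). The other genes listed for respiratory ciliated cells, Ccdc153 and Tmem212, had 1 UMI and 0 UMIs in members.

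Of 14 synaptic genes tested 0 were higher and 4 lower, with a median log2 ratio of -0.43. Both the share that was lower and the median are those of all genes (28.5% and -0.43). Slc17a6, the vesicular glutamate transporter of olfactory and many trigeminal neurons, was at 374 CPM against 331 CPM, and Slc17a7 had no UMI. Cplx1 was at 31.7 CPM against 518 CPM, while Cplx2, the other complexin, was at 324 CPM against 120 CPM. Among 10 ion channel genes 2 were higher and 2 lower than in the rest, where 7.51% and 28.5% of all genes were. Their median log2 ratio was -0.63. Against sensory neuron barcodes 0 were higher and 3 lower, where 8.92% and 25.4% of genes were. Scn9a, which was under 4-fold, was found in 137 members at 1283 CPM, against 539 CPM in the rest and 660 CPM in sensory neurons. This sodium channel, which is used to recognise somatosensory neurons, was therefore also a transcript of the olfactory members.

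Other general markers were shared in the same way. Epcam, an epithelial adhesion gene, was found in 120 members at 765 CPM, against 8.68 CPM in sensory neurons and 1256 CPM in pituitary barcodes, while the epithelial gene Cdh1 had only 3 UMIs in members. Krt18 and Krt8 were at 56.4 CPM and 31.7 CPM, in 6 and 3 members. Cartpt, a neuropeptide gene, was at 1220 CPM in 117 members and 681 CPM in sensory neurons. Chga, a granin of secretory granules, was found in 171 members at 2510 CPM, against 312 CPM in sensory neurons. Cartpt and Chga were named after their values were seen.

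Genes of trigeminal neurons were low. All 14 genes of that list were lower in members than in the rest, with a median log2 ratio of -3.81, where 28.5% of all genes were lower. Against sensory neuron barcodes, which were themselves chosen with 4 of these genes (Prph, Avil, Isl1 and Nefl), all 14 were lower too, where 25.4% of genes were. Nefl had 208 CPM against 4499 CPM, Prph 282 CPM against 2304 CPM, and the nociceptor genes Trpv1 and Scn10a 1 and 7 UMIs in all members. The 10 genes with the lowest ratios among those with at least 200 CPM in the rest included Calca, Nefl, Ndn, Prl, Isl1, Adcyap1, Tac1, Fxyd7 and Scn7a. Calca was bounded by the rule, and the limits on Calca and Nefm also act on barcodes of sensory neurons.

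The 15 genes of highest ratio outside the lists were 1700012B09Rik, BC052486, Umodl1, Gm11992, Fam217a, Mslnl, Gm581, BC051077, Papss2, Spef2, Rd3, Ttc21a, BC049352, Serpine2 and Ttll6. Umodl1, also called olfactorin, was found in 62 members at 300 CPM, with a ratio of 532 (310 to 973). Papss2, which makes the sulfate donor that sulfotransferases use, had 197 CPM in 35 members against 0.668 CPM. Spef2 and Ttc21a, known from flagella and cilia, had ratios of 294 (216 to 404) and 229 (149 to 362), and Ttll6, an enzyme that adds glutamate to tubulin, 160 (118 to 218). Rd3, known as a regulator of guanylate cyclase in photoreceptors, stood at 434 CPM. Serpine2, a protease inhibitor, was the broadest, found in 161 members at 2383 CPM against 14.4 CPM in the rest.

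Detoxification genes were spread over the members in 2 ways. Of 13 tested, 8 were higher and 1 lower, against 7.51% and 28.5% of all genes. Carns1, which makes the dipeptide carnosine that is abundant in olfactory neurons, was spread over 92 members at no more than 5 UMIs each, at 518 CPM against 16.0 CPM. Cyp2g1, Cyp2a5 and Cbr2, enzymes of supporting cells, had 116, 137 and 116 UMIs, but these fell into only 6, 6 and 5 members with up to 55 UMIs in one. Sult1c1 and Sec14l3 of the supporting cell list behaved alike, in 4 and 7 members. In the 181 members outside the 5 rich in these genes, the summed supporting cell genes reached at most 6 UMIs and had a median of 0.

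Markers of the remaining cells were counted in the same way. Of 9 glial genes 0 were higher and 3 lower than in the rest, a share near the 28.5% of all genes, and of 7 tested against sensory neuron barcodes 4 were higher and 3 lower, where 8.92% and 25.4% of all genes were. The 3 members rich in myelin genes held 88.9% of the myelin UMIs, and the others had a median of 0. The haemoglobin gene Hbb-bs was found in 180 members at 28124 CPM against 12840 CPM. The 21 members with 10% haemoglobin or more held 76.4% of the haemoglobin UMIs of the members, and the others had a median of 12 UMIs. Over all members the median was 13.5 haemoglobin UMIs, or 0.957% of a barcode, and in the deeper barcodes of the rest it was 10 UMIs, or 0.312%. Gh, bounded by the rule, had 477 UMIs in 119 members, and of the other pituitary genes Prl had 44. Of 6 vessel and fibroblast genes 0 were higher and 5 lower, where 7.51% and 28.5% of all genes were. The genes of Bowman glands and of microvillous cells of the olfactory epithelium had 4 UMIs in all members together, 2 of Bpifa1 and 2 of Sox9. The part of these transcripts in the levels of other genes was not tested, and the transduction genes at 4-fold or more numbered 12 without the 37 members that showed them.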

How the data were processed

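Dropseq libraries of 9 runs on pooled trigeminal ganglia were mapped by the authors with STAR (2.5.3a, genome mm10; bcl2fastq 2.17 and Seurat 1.4.0.16 are also named in the submitters' processing notes). The authors deposited counts of unique transcripts per gene and barcode, not normalized, and every library in the table has at least 1000 of them. No barcode names its run, so the table was treated as 1 pooled sample.

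Members, gene lists and comparisons were chosen with earlier results of these data known. UMIs were summed over barcodes and given per 1000000 UMIs, with exact Poisson intervals. Ratios have exact conditional intervals, and shares have Clopper-Pearson intervals. Shares at 1000 UMIs are expected values under sampling without replacement. Genes with 20 UMIs or more in members and rest together were tested against a ratio of 4, which is a size and not a p-value. Sensory neuron barcodes (3650) had 3 or more of Scn9a, Prph, Avil, Isl1, Nefl and Nefm, glia (228) had 2 or more of a set of glial genes, red cells (482) had 20% haemoglobin and pituitary barcodes (640) had 10% hormone UMIs, each without the signs of the others. Named genes were the rule genes, list genes, the 15 highest ratios outside the lists (50 UMIs and 10% of members or more), the 10 lowest ratios with 200 CPM or more in the rest and the 5 Olfr genes with most UMIs. Other genes were named after their values were seen, among them Dlg2, Lrrc3b, Scn4b, Calb2, Tubb2b, Cartpt and Chga. Some genes are not reported here. Positions and promoter windows are from RefSeq (GRCm38.p6). The calculations used Python 3.11.15 with numpy 2.4.6, scipy 1.17.1 and pandas 2.3.3, and were tested on simulated data.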

Additional observations from a re-analysis of the deposited data

How the results depend on the processing

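The count of genes at 4-fold or more in members was 1133 and depended on the minimum of UMIs, being 1850 with no minimum and 592 at 100 UMIs, while 553 genes had a lower bound of the ratio of 4 or more (an alternative added after the data were seen). The transduction genes at this fold numbered 9 to 12 of 14 under all 10 alternatives, 9 at the minimum of 100 UMIs because fewer genes were tested. Members with an odorant receptor UMI were 81.2%, and 74.5% at 1000 UMIs per barcode. Members with 1 receptor gene were 92.7% of those with any, and 96.5% when a gene needed 2 UMIs. The number of members was 175 with 3 or more of the 5 genes, 195 when no gene needed 2 UMIs, 218 without the limits on Calca, Nefm and Gh, and 186 with at least 500 genes. Stoml3 stood at 9617 CPM and Omp at 7991 CPM in barcodes chosen by the other 4 genes. Of 41 alternatives, 34 left a value within its interval or within 1.5 times a count. No paired analysis was possible because the barcodes carry no run and all samples form 1 group. The limit throughout is depth: at a median of 1351.5 UMIs per member a gene at a low level is missed in most barcodes, so shares with a gene tend to be low, the share with a single receptor gene tends to be high, and a gene at 0 is not shown to be absent.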
